A study of Mus musculus with 35 samples.

Results

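Serine and one-carbon metabolism was followed through 10 enzyme genes: Phgdh, Psat1, Psph, Shmt1, Shmt2, Mthfd1, Mthfd2, Mthfd1l, Aldh1l1 and Aldh1l2. They were taken by name from the 55421 gene rows of a count table made from interscapular brown adipose tissue (iBAT), and each symbol matched 1 row. The table holds 35 male C57BL/6J mice aged 9 to 10 weeks, 5 at room temperature (24 °C) and 5 after each of 6 durations at 6 °C: 6 hours and 1, 2, 3, 4 and 5 days. RNA came from 1 whole iBAT pad per mouse, so fewer cells of a type and less RNA per cell cannot be told apart. All mice ate standard chow. The cold mice were housed one to a cage without nesting material, so that housing cannot be told apart from temperature. Each cold group was set against the same 5 control mice, which those 6 comparisons therefore share.

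Cells make serine from the glycolytic intermediate 3-phosphoglycerate in consecutive steps catalysed by PHGDH, PSAT1 and PSPH. Serine hydroxymethyltransferase, SHMT1 in the cytosol and SHMT2 in mitochondria, then splits serine into glycine and a one-carbon unit bound to tetrahydrofolate. MTHFD2 and MTHFD1L process that unit in mitochondria to formate, MTHFD1 does the matching work in the cytosol, and ALDH1L1 (cytosol) and ALDH1L2 (mitochondria) oxidise it to carbon dioxide with production of NADPH. The units feed purine, thymidylate and methionine synthesis. In many cell types the genes of serine synthesis and of the mitochondrial folate branch are targets of the transcription factor ATF4.

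Libraries held between 3846016 and 6047247 counts, and 1 count was worth 0.26 CPM (counts scaled to a fixed library total after TMM, edgeR's correction for composition) in the smallest library. Mitochondrially encoded genes took 40.2% of all counts (33.6% to 46.2% per library). The brown adipocyte markers Ucp1, the uncoupling protein, and Cidea, a lipid droplet protein, averaged 1910 and 2430 CPM in controls. After 5 days 4 of 8 brown adipocyte markers were higher and 1 lower, with 20.2% and 18.6% of all genes. Ucp1 rose, by 1.90 ± 0.17 (SE) on the log2 scale after 6 hours and 1.98 ± 0.18 after 5 days (adjusted p = 1.2e-07 and 2.2e-07, edgeR quasi-likelihood test, n = 5 mice per group), while Adipoq, the adiponectin gene, was lower after every duration (-1.12 ± 0.12 after 5 days, adjusted p = 9.3e-07). Summed CPM of 6 skeletal muscle markers spanned 2.31 to 948 among libraries with a median of 324 in controls and 179 after 5 days. Of the 6 markers 3 were lower then, with 18.6% of all genes. The part of muscle in the results was not tested.

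Mthfd2 was the one enzyme gene that was higher after every duration of cold, Shmt1 was lower from 1 day on, and Psph was higher after 4 and 5 days. Psat1 was higher after 3 and 4 days by a small margin. Phgdh, which encodes the first enzyme of the serine pathway, had its highest mean at room temperature. Mthfd1 and Aldh1l1 did not pass the test after any duration. After 6 hours 1 of the 7 members tested was higher and 0 were lower, and over all genes tested 21.5% were higher and 21.0% lower. After 1 day 1 of 7 was higher and 1 lower (all genes 18.9% and 17.8%), and after 2 days again 1 and 1 of 7 (all genes 16.4% and 14.7%). After 3 days 2 of 8 were higher and 1 lower (all genes 18.3% and 15.5%), and after 4 days 3 of 8 were higher and 1 lower (all genes 19.4% and 18.6%). After 5 days 2 of 8 were higher and 1 lower, with 20.2% and 18.6% of all genes. The members' share of calls was thus near that of all genes at most durations. A single test over all 7 groups called 6 of 9 members, against 60.4% of all genes. These were Phgdh, Psat1, Psph, Shmt1, Shmt2 and Mthfd2, with adjusted p from 7.2e-09 (Shmt1) to 0.0134 (Phgdh, which passed the count filter mainly through the controls). All calls are edgeR quasi-likelihood tests at an adjusted p under 0.05, adjusted by Benjamini-Hochberg over all genes tested.

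**Figure D1:**
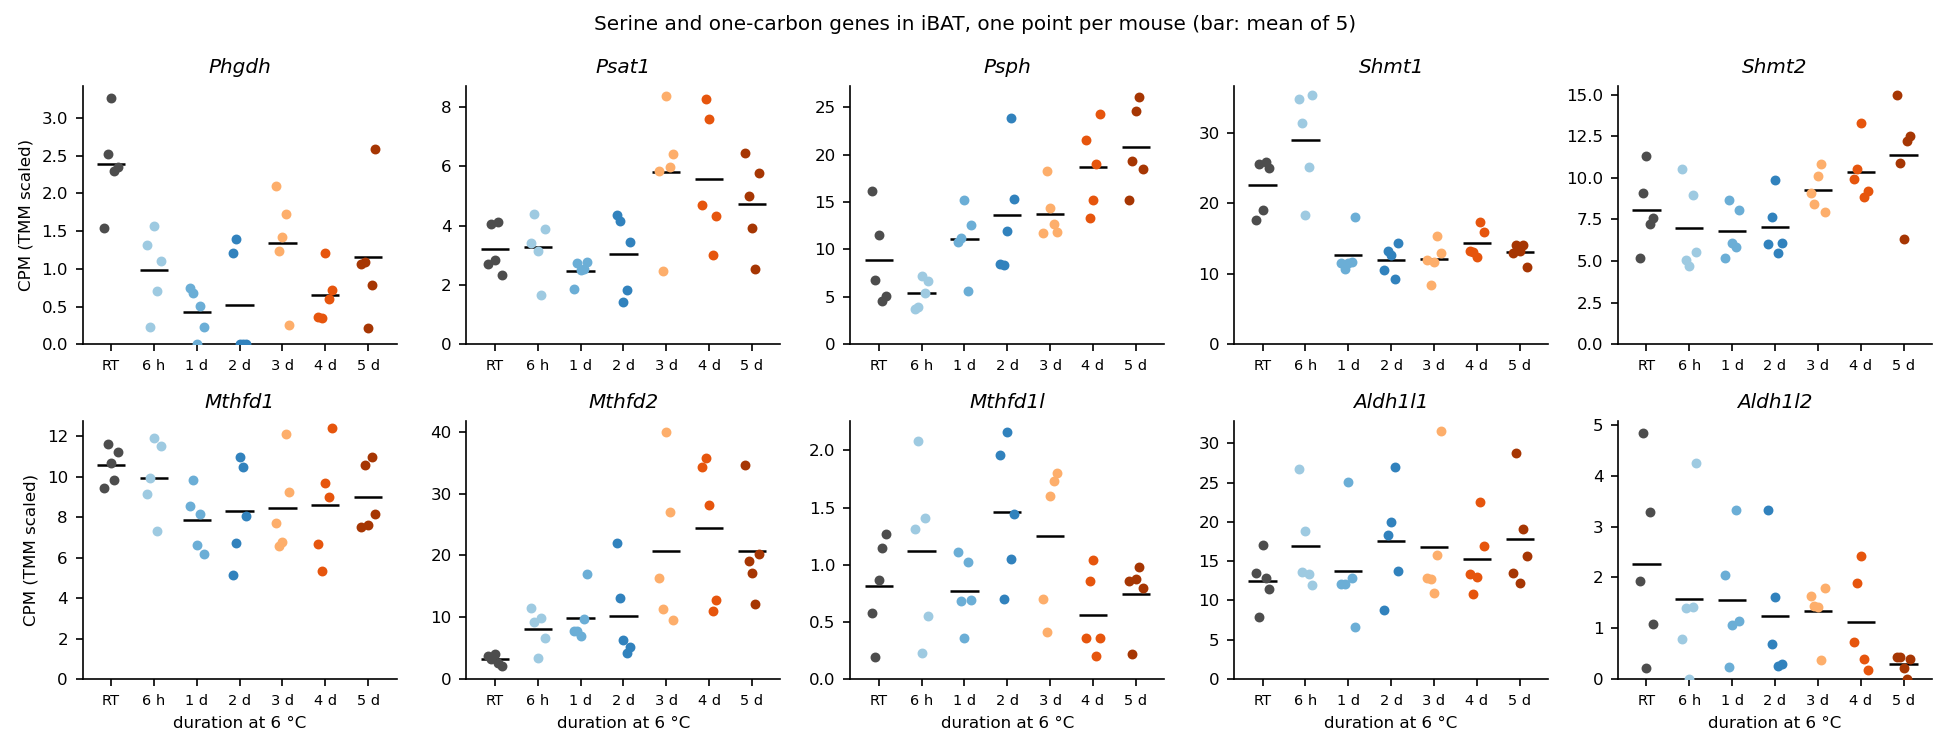
CPM (y axis, linear) of each of the 10 genes in each of the 35 mice, by duration at 6 °C (x axis; RT, room temperature); each point is 1 mouse and each bar is the mean of 5. From 1 day on all Mthfd2 points lie above the highest control (4.13 CPM), and from 2 days on all Shmt1 points lie below the lowest control (17.7 CPM).

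The 3 genes of serine synthesis had 3 different time courses. Phgdh (chromosome 3, 98313170 to 98339990, minus strand, GRCm38), the gene of the NAD-dependent first step, read 1.54, 2.52, 3.26, 2.3 and 2.35 CPM in the controls. It read 1.31, 0.231, 1.57, 0.707 and 1.11 CPM after 6 hours, 0.743, 0.685, 0, 0.51 and 0.23 after 1 day, and 1.21, 1.39, 0, 0 and 0 after 2 days. Every mouse after 1, 2 and 4 days was below every control, while after 3 and 5 days the highest mice, at 2.1 and 2.59 CPM, overlapped the controls. These are 0 to 15 counts per library, and Phgdh passed the count filter only in the comparisons at 3 and 5 days.

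For Phgdh after 1, 2 and 4 days the exact two-sided permutation test on log2 CPM gave p = 0.00794 each, the smallest that splits of 5 against 5 mice allow, with differences of -1.81, -1.93 and -1.44. After 6 hours the difference was -1.08 (exact p = 0.0159). These p-values are unadjusted, and 33 such tests were made for members below the filter. In one edgeR fit of all 7 groups, where Phgdh passed the filter mainly through the controls in which it is high, the log2 fold changes were -2.42 ± 0.66, -2.03 ± 0.63 and -1.84 ± 0.60 after 1, 2 and 4 days, given as a description. The 2-group fits did not call it after 3 or 5 days (edgeR adjusted p = 0.135 and 0.0721). Without the fifth mouse at 5 days, which read 2.59 CPM, the value there was -1.56, given as a description. In that fit Phgdh passed the filter through the controls, in which it is high. A pseudogene, Phgdh-ps1, had 0 counts in all libraries.

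Psat1 (chromosome 19, 15904678 to 15947337, minus strand) encodes the aminotransferase of the second step. Its controls read 2.7, 4.07, 2.83, 4.11 and 2.35 CPM, and its means stayed between 2.48 and 3.29 CPM through 2 days of cold. After 3 days the mice read 5.83, 2.46, 8.36, 5.97 and 6.43 CPM, and after 4 days 4.7, 8.26, 7.6, 3.01 and 4.33. Of each of these groups 4 of 5 mice exceeded the highest control and 1 was within the control range. The log2 fold change was 0.86 ± 0.30 after 3 days (adjusted p = 0.0365) and 0.79 ± 0.30 after 4 days (adjusted p = 0.0458), both edgeR, and 0.54 ± 0.29 after 5 days (adjusted p = 0.152). At 3 days Psat1 no longer passed when any of 7 of the 10 libraries was left out: controls 1, 3 and 5 and mice 1, 3, 4 and 5 at 3 days (adjusted p up to 0.114). At 4 days it was lost without any of controls 1, 3 and 5 or mice 2 and 3 of that day (up to 0.126). With the replicate number as a block the adjusted p was 0.08 and 0.0746, and with library size scaling 0.0791 and 0.107.

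Psph (chromosome 5, 129765558 to 129787449, minus strand) encodes the phosphatase of the last step. Controls were wide apart at 16.2, 6.78, 11.5, 4.6 and 5.07 CPM. After 6 hours Psph read 3.67, 3.93, 7.16, 5.42 and 6.66 CPM, and after 1 day 10.8, 11.2, 15.2, 5.61 and 12.6. It rose between those durations, by 1.05 ± 0.25 on the log2 scale (edgeR, adjusted p = 0.0084). After 4 days it read 21.5, 13.3, 15.2, 19.0 and 24.3 CPM and after 5 days 15.2, 19.3, 24.6, 26.1 and 18.5, so that 3 and 4 of 5 mice lay above every control. The log2 fold change against controls was 1.09 ± 0.28 after 4 days (adjusted p = 0.00636) and 1.24 ± 0.27 after 5 days (adjusted p = 0.00144). The value after 3 days, 0.67 ± 0.29, did not pass (adjusted p = 0.0838), but without control 1, the 16.2 CPM mouse, it was 1.01 (adjusted p = 0.00614). After 6 hours it was -0.71 ± 0.32 (adjusted p = 0.0861), and -0.87 (0.0364) and -0.84 (0.0429) without control 4 or 5. An annotated exon of Cct6a, a chaperonin subunit on the opposite strand, overlaps Psph, away from its 3′ end. Cct6a averaged 48.3 CPM in controls and 70.3 after 5 days, and its highest mean was 77.8 CPM after 6 hours, where Psph had its lowest, 5.37 CPM.

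Shmt1 (chromosome 11, 60788104 to 60811718, minus strand), the cytosolic hydroxymethyltransferase gene, read 17.7, 25.6, 19.1, 25.9 and 25.0 CPM in controls. After 6 hours it read 34.8, 31.4, 18.3, 25.2 and 35.3 CPM, which overlapped the controls (log2 fold change 0.33 ± 0.17, adjusted p = 0.124, edgeR). Without the third mouse at 6 hours, at 18.3 CPM, that value was 0.47 (adjusted p = 0.0187). After 1 day it read 11.5, 10.7, 11.5, 11.7 and 18.1 CPM and after 2 days 10.6, 13.2, 12.6, 9.19 and 14.4. The drop therefore lay between 6 hours and 1 day, where Shmt1 fell by 1.19 ± 0.19 on the log2 scale (adjusted p = 3.1e-04), a 2.27-fold difference. The 3-day mice read 11.9, 8.41, 11.7, 15.4 and 12.9 CPM, the 4-day mice 13.2, 13.1, 12.4, 17.4 and 15.9, and the 5-day mice 12.9, 14.1, 13.3, 14.1 and 11.0. Means from 1 to 5 days stayed between 12.0 and 14.4 CPM, and the ranges of neighbouring groups in that order overlapped.

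Against controls the log2 fold change of Shmt1 was -0.85 ± 0.17 after 1 day (adjusted p = 8.9e-04, edgeR), and the values at 2 to 5 days were -0.94, -0.90, -0.67 and -0.81 (adjusted p = 4.2e-04, 5.6e-04, 0.00175 and 3.3e-04). These calls were present in every alternative fit. An exon of Smcr8, a gene on the opposite strand, overlaps the last 500 bases of Shmt1, and how the counting used strand is not given in the sources used here. Smcr8 averaged 4.49 CPM in controls, 12.3 after 6 hours and 9.53 after 1 day, and it was higher than in controls after 6 hours, 1 day and 4 days (log2 fold change 1.42, 1.07 and 0.73), where Shmt1 was at 0.33, -0.85 and -0.67. From 6 hours to 1 day Smcr8 was at -0.36 ± 0.27 (adjusted p = 0.39), and from 6 hours to 5 days it was lower, as was Shmt1 (-0.81 ± 0.23, edgeR adjusted p = 0.00904). The part of Smcr8 reads in the Shmt1 values was not tested.

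Shmt2 (chromosome 10, 127517123 to 127522444, minus strand), the mitochondrial counterpart, differed less. Controls read 5.2, 9.1, 11.3, 7.23 and 7.6 CPM, the 6-hour mice 10.5, 5.08, 4.7, 8.96 and 5.55, and the 5-day mice 15.0, 10.9, 6.32, 12.2 and 12.5. The 5-day mice overlapped both groups, and 3 of 5 lay above every control. No duration passed against controls; the largest value was 0.49 ± 0.23 after 5 days (95% interval 0.04 to 0.95, adjusted p = 0.102). That value was 0.63 (adjusted p = 0.0477) without control 3 and 0.65 (0.022) without mouse 3 at 5 days. Against 6 hours the 5-day level was higher by 0.74 ± 0.25 (edgeR, adjusted p = 0.027), and this call was lost without any of mice 2, 3 and 5 at 6 hours or 1, 4 and 5 at 5 days (adjusted p up to 0.0751). An exon of Ndufa4l2, on the opposite strand, overlaps the last 500 bases of Shmt2. Ndufa4l2 averaged 2.64 to 4.63 CPM in all groups and passed no test against controls.

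Within each library the count of Shmt2 can be set against that of Shmt1, which needs no scaling between libraries. The log2 ratio (0.5 added to each count) averaged -1.50 ± 0.44 (SD, n = 5) in controls and ranged from -1.83 to -0.75. It averaged -2.08 ± 0.53 after 6 hours, and from day 1 to day 5 the means were -0.90 ± 0.35, -0.78 ± 0.31, -0.36 ± 0.26, -0.48 ± 0.42 and -0.25 ± 0.52. After 3 days all 5 mice were above every control, and after 4 and 5 days 3 and 4 of 5 were. The ratio describes unequal change of the 2 mRNAs and was not tested. The other mitochondrial to cytosolic pairs rested on few counts: the ratio of Mthfd1l to Mthfd1 averaged from -3.85 to -2.45, and that of Aldh1l2 to Aldh1l1 from -5.65 to -2.88.

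**Figure D2:**
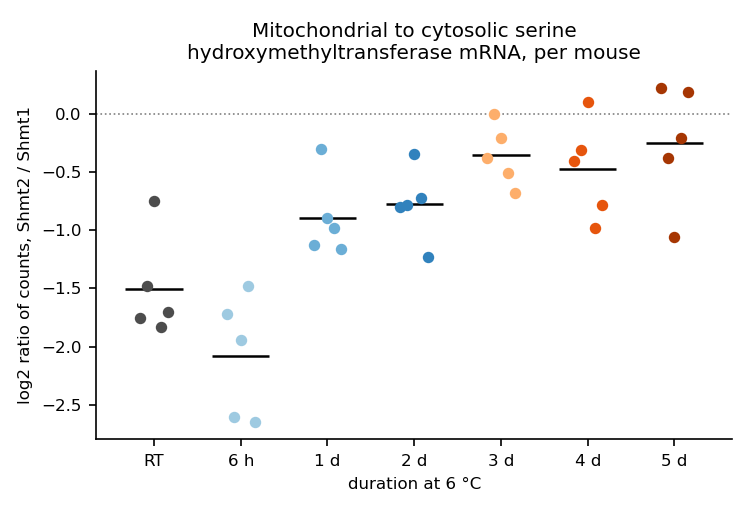
The log2 ratio of Shmt2 to Shmt1 counts (y axis) in each mouse, by duration at 6 °C (x axis; RT, room temperature); points are mice, bars are means of 5, and the dotted line marks equal counts. The mean goes from -1.50 in controls to -2.08 after 6 hours and -0.25 after 5 days.

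Mthfd2 (chromosome 6, 83305691 to 83325908, minus strand), the mitochondrial methylenetetrahydrofolate dehydrogenase and cyclohydrolase, had the largest log2 fold change against controls after each duration among the members tested in the 2-group fits. Controls were close together at 3.66, 3.29, 4.13, 2.63 and 2.17 CPM. After 6 hours the mice read 11.5, 9.24, 3.35, 9.9 and 6.66 CPM and after 1 day 7.8, 7.77, 6.98, 9.7 and 17.0. By 6 hours 4 of 5 mice exceeded every control, and from 1 day on all did. After 2 days the values were 22.0, 13.2, 6.29, 4.2 and 5.19 CPM and after 3 days 16.3, 11.3, 39.9, 27.0 and 9.51. After 4 days they were 34.3, 35.8, 28.2, 11.0 and 12.8 CPM and after 5 days 34.6, 19.1, 17.2, 12.2 and 20.3. As a ratio, the highest and the lowest mouse of a group stood furthest apart after 2 days, 22.0 against 4.2 CPM, and the groups at 3 to 5 days were also wide.

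The log2 fold change of Mthfd2 against controls was 1.33 ± 0.30 after 6 hours (adjusted p = 0.00163), 1.62 ± 0.27 after 1 day (2.2e-04) and 1.72 ± 0.41 after 2 days (0.00471), all edgeR adjusted p. It was 2.74 ± 0.36 after 3 days (adjusted p = 2.9e-05), 2.95 ± 0.34 after 4 days (4.9e-06) and 2.70 ± 0.27 after 5 days (5.0e-07), or 6.49- to 7.74-fold. All 6 calls were present in every alternative fit, and leaving out 1 library gave 1.19 to 3.15 over the 6 durations. After 5 days it was higher than after 6 hours by 1.37 ± 0.27 (adjusted p = 5.0e-04). No single step between neighbouring durations passed: the largest, from 2 to 3 days, was 1.01 ± 0.44 (adjusted p = 0.557). The order of the means was 4 days (24.4 CPM), 3 days (20.8), 5 days (20.7), 2 days (10.2), 1 day (9.85), 6 hours (8.14) and room temperature (3.18), and the ranges of every neighbouring pair in this order overlapped.

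Mthfd1 (chromosome 12, 76255298 to 76319803, plus strand), the trifunctional cytosolic enzyme gene, averaged 10.6 ± 0.909 CPM (SD, n = 5) in controls. It averaged 7.87 to 9.95 CPM in the cold groups, and its value nearest the threshold was -0.43 ± 0.17 after 1 day (adjusted p = 0.0551, 95% interval -0.76 to -0.10). With library size scaling, under which the median of all genes was -0.25 to -0.146 in the comparisons with controls, the values after 1, 2 and 5 days were -0.65, -0.61 and -0.48 and passed. Without mouse 2 at 1 day the value was -0.51 (adjusted p = 0.0339). Mthfd1l (chromosome 10, 3973118 to 4167081, plus strand), the mitochondrial formyltetrahydrofolate synthetase gene, had 1 to 13 counts per library, passed the filter in no comparison, and averaged 0.564 to 1.46 CPM. None of its 6 differences from controls reached an exact permutation p under 0.05, the lowest being 0.103 after 2 days (difference 0.64).

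Aldh1l1 (chromosome 6, 90486427 to 90600203, plus strand) averaged 12.5 ± 3.28 CPM in controls and 13.7 to 17.8 CPM in the cold groups, with single mice up to 31.6. Its log2 fold changes lay between 0.15 and 0.51, and none passed. The value after 5 days was 0.51 ± 0.22 (adjusted p = 0.0833), and it was 0.63 (0.0445) or 0.62 (0.0383) without control 3 or mouse 3 at 5 days. Without mouse 1 at 2 days, 0.65 was reached there (adjusted p = 0.0277). Aldh1l2 (chromosome 10, 83487450 to 83534140, minus strand) read 1.93, 4.84, 0.217, 3.28 and 1.09 CPM in controls and 0.43, 0.434, 0.218, 0 and 0.398 after 5 days, which is 0 to 2 counts. The groups met at 0.217 CPM in 1 control. The exact permutation test gave p = 0.0397 (difference -1.64), unadjusted and lost without any 5-day mouse or without control 2 or 4. The joint fit gave -2.87 ± 0.84, given as a description, since Aldh1l2 passed its filter only through mice outside the 5-day group. The test over all 7 groups did not call Aldh1l2 (edgeR adjusted p = 0.118). An exon of D10Wsu102e, a gene on the opposite strand, overlaps the last 500 bases of Aldh1l2. D10Wsu102e averaged 9.0 CPM in controls and 7.24 after 5 days (edgeR adjusted p = 0.243).

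**Figure D3:**
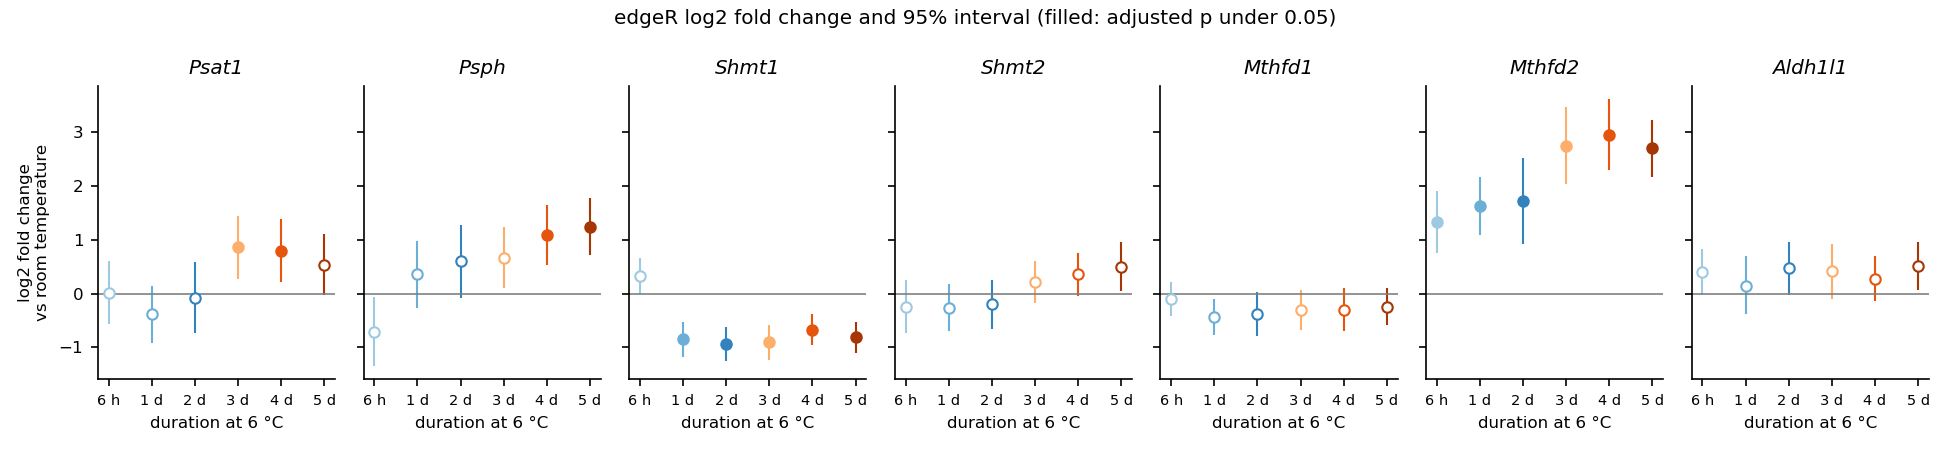
Log2 fold change against room temperature (y axis) with its 95% interval for the 7 genes tested after all 6 durations at 6 °C (x axis); filled points passed an adjusted p under 0.05 (edgeR, 5 against 5 mice). Mthfd2 runs from 1.33 to 2.95, Shmt1 changes sign between 6 hours (0.33) and 1 day (-0.85), and Mthfd1 and Aldh1l1 have no filled point.

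Steps between neighbouring durations do not use the shared controls. From 6 hours to 1 day 2 of 7 members passed, Psph upward and Shmt1 downward, against 16.9% of all genes. From 1 to 2 days 0 of 7 passed with edgeR and DESeq2, and 0 had an unadjusted p under 0.05 (all genes 1.27%). From 2 to 3 days 0 of 7 passed with either tool, Psat1 and Mthfd2 had an unadjusted p under 0.05, and 0.142% of all genes passed. From 3 to 4 days 0 of 7 members passed with either tool, Psph alone had an unadjusted p under 0.05, and edgeR called 0.0% of all genes (845 at an unadjusted p under 0.05, 20 with DESeq2). From 4 to 5 days 0 members passed with either tool, 0 had an unadjusted p under 0.05, and edgeR again called 0.0% of all genes (742 unadjusted, 7 with DESeq2). Between 6 hours and 5 days 4 of 7 members passed, Psph, Shmt2 and Mthfd2 upward and Shmt1 downward, against 35.8% of all genes. Psph had the largest of these, 1.95 ± 0.21 (adjusted p = 3.9e-07, 3.85-fold), and Shmt1 was at -1.14 ± 0.17 (adjusted p = 2.6e-05).

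The genes around these enzymes were counted in 7 lists, chosen with earlier results of these data known. Of folate uptake and storage genes, Slc25a32, which encodes the mitochondrial folate carrier, rose from 30.3 ± 2.62 CPM (SD, n = 5) in controls to 61.6 ± 13.4 after 5 days. Its log2 fold change was 1.01 ± 0.14 (edgeR adjusted p = 2.2e-05), and it had already passed after 2, 3 and 4 days (0.62, 0.83 and 0.81). It was the 1 of 7 tested that passed after 5 days, with 20.2% of all genes higher and 18.6% lower. Another of the 7, Folr2, passed the filter through the cold mice, in which it is high (2.16 CPM in controls, 3.68 after 5 days). Folr2 was at 0.78 ± 0.32 and was not called. After 6 hours Slc19a1, the reduced folate carrier gene, was lower (-0.89 ± 0.19, edgeR adjusted p = 0.0013). Of 5 other folate enzymes tested 1 passed after 5 days, Mtfmt (-0.73 ± 0.23), with 18.6% of all genes lower. The median log2 fold change after 5 days was 0.40 for the folate uptake list with Folr2 in it. It was 0.30 for the other folate enzymes and -0.02 for all genes tested.

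Of glycine cleavage and methyl-glycine genes, 2 of 5 were higher and 1 lower after 5 days, with 20.2% and 18.6% of all genes. One of the 2, Gnmt, entered this count through the filter by its high cold mice. Gnmt, which uses glycine to consume S-adenosylmethionine, rose from 1.12 CPM (0.724 to 1.48) to 11.5 CPM (9.56 to 12.9), a log2 fold change of 3.31 ± 0.24 (edgeR adjusted p = 1.6e-08). It was below the filter after 6 hours and was tested at the later times through the cold mice, in which it is high. Gcsh, the lipoyl carrier protein of the glycine cleavage system, fell from 95.3 to 52.2 CPM (-0.88 ± 0.10, adjusted p = 2.6e-06), and it was already lower after 6 hours (-0.86 ± 0.11). Dld, a subunit shared by several mitochondrial dehydrogenase complexes, was at 0.67 ± 0.10. In the methionine cycle and transsulfuration list 3 of 7 were higher and 4 lower after 6 hours (all genes 21.5% and 21.0%). After 5 days 1 was higher and 2 were lower (all genes 20.2% and 18.6%). Mtr, the folate-dependent methionine synthase, fell from 18.7 to 10.2 CPM after 6 hours (-0.90 ± 0.17). It averaged 7.95 CPM after 5 days (-1.24 ± 0.21, edgeR adjusted p = 1.4e-04). Cth, which makes cysteine from cystathionine, rose from 1.97 to 6.06 CPM after 6 hours (1.58 ± 0.35). It averaged 5.42 CPM after 5 days (1.44 ± 0.41, edgeR adjusted p = 0.00897) and was not called after 3 days (0.55 ± 0.48).

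Among amino acid transporters and serine-using enzymes, 2 of 9 were higher and 1 lower after 5 days (all genes 20.2% and 18.6%). After 6 hours 2 of 9 were higher and 3 lower (all genes 21.5% and 21.0%). Slc1a5, a neutral amino acid exchanger, fell from 254 ± 28.6 CPM to 58.1 ± 11.7 after 6 hours (-2.15 ± 0.13, edgeR adjusted p = 1.2e-09) and stood at 140 ± 34.4 after 5 days (-0.87 ± 0.14). Slc38a2, a sodium-coupled neutral amino acid transporter, rose from 50.3 to 107 CPM after 6 hours and 137 CPM after 5 days (1.06 ± 0.15 and 1.44 ± 0.13). De novo purine synthesis, which uses one-carbon units, was followed by 6 genes. Adsl was higher and Gart lower after 6 hours, and after 5 days 3 were lower and 0 higher: Ppat (-0.87 ± 0.27), Paics (-0.59 ± 0.15) and Pfas (-0.56 ± 0.19). The Pfas call was lost without any of controls 1 and 3 or mice 3 and 5 at 5 days (adjusted p up to 0.0865), and that of Adsl, 0.53, without controls 2 or 4 or mice 1 or 4 at 6 hours (up to 0.103). The purine list's median was -0.37 after 5 days.

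In the list of Atf4 and its amino acid response genes, 8 were tested after every duration. Of these, 4 were higher and 1 lower after 6 hours (21.5% and 21.0% of all genes), 3 and 2 after 1 day, 3 and 1 after 2 days, 5 and 1 after 3 days, 5 and 1 after 4 days and 6 and 1 after 5 days (20.2% and 18.6% of all genes). The median log2 fold change of the 8 was 0.55 after 6 hours and 0.81 after 4 days, against -0.03 and -0.02 for all genes. Gdf15 was tested only after 3 and 5 days, through the cold mice in which it is high, and is left out of these counts. Atf4 itself was higher after 6 hours (1.32 ± 0.13, edgeR adjusted p = 4.2e-07), and Slc3a2, a subunit of amino acid exchangers, rose from 35.5 to 216 CPM (2.59 ± 0.12). Both were also higher after every later duration, at 1.29 ± 0.15 and 2.35 ± 0.15 after 5 days. Eif4ebp1, a repressor of translation initiation, was lower after 6 hours (-1.57 ± 0.14). Trib3, a pseudokinase of the stress response, was at -0.19 ± 0.34 after 6 hours (adjusted p = 0.681) and higher after 5 days (1.97 ± 0.26, adjusted p = 9.9e-06).

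**Figure D4:**
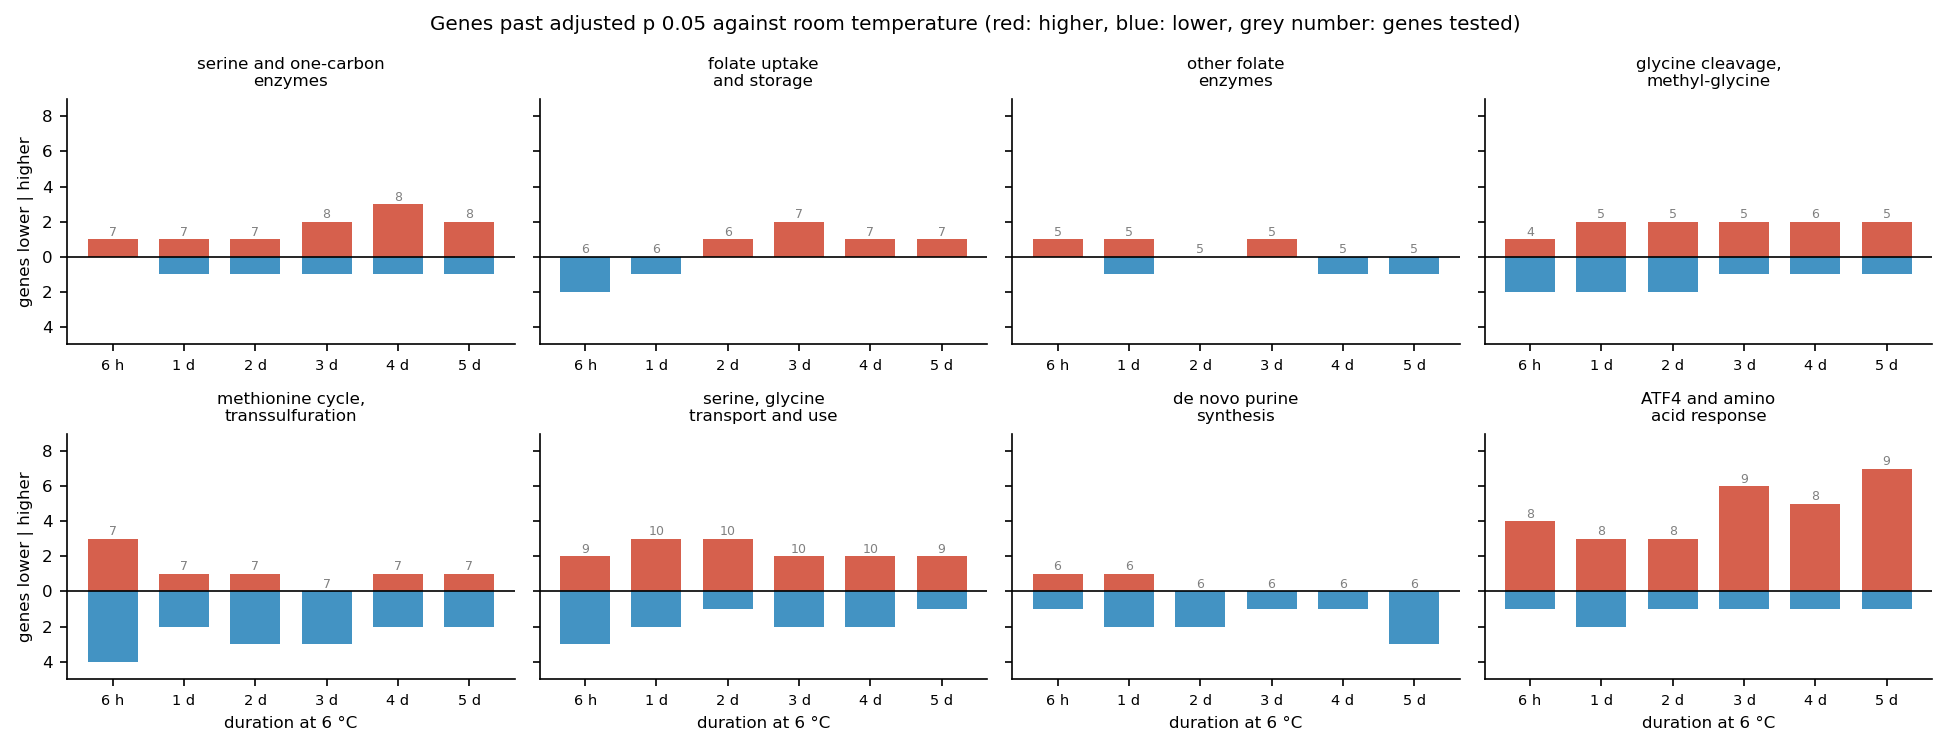
Number of genes higher (up, red) and lower (down, blue) than at room temperature at an edgeR adjusted p under 0.05 (y axis) after each duration at 6 °C (x axis), for the 10 enzymes and the 7 lists around them; grey numbers are genes tested. After 5 days the ATF4 list has 7 genes higher of 9 tested, 1 of which, Gdf15, passed the filter through the cold mice. The purine list has 0 higher and 3 lower of 6 then, with 20.2% and 18.6% of all genes.

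Mice with high Mthfd2 tended to have high Gdf15, a secreted stress hormone gene that is also in the ATF4 list. Among 6171 genes with a mean of at least 50 counts, Gdf15 had the highest Pearson correlation with Mthfd2 over the 35 mice (r = 0.86, 0.84 without the 2 farthest mice), followed by Plekhm2 (0.83) and Map4k4 (0.83). After subtracting the mean of each duration r was 0.80 for Gdf15, 0.53 for Plekhm2 and 0.70 for Map4k4. Gdf15 read 0 to 0.385 CPM in controls, 0.943 to 6.29 after 6 hours and 3.05 to 45.5 after 5 days. In the ATF4 list r with Mthfd2 was 0.84 for Fgf21 and 0.77 for Trib3, or 0.64 and 0.72 within durations, and 0.46 for Asns (-0.01 within durations). Fgf21 and Trib3, with 399 and 1621 counts over the 35 libraries, were below the mean of 50 counts set for the ranking. Values of r for the rest of the list are not given. Atf4 and Slc3a2 had their highest means after 6 hours (156 and 216 CPM) and averaged 151 and 182 CPM after 5 days. Between these durations neither passed (edgeR adjusted p = 0.859 and 0.205). Mthfd2 averaged 8.14 CPM after 6 hours, 24.4 after 4 days and 20.7 after 5 days. These correlations are descriptions, since mice of 1 duration share their treatment.

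**Figure D5:**
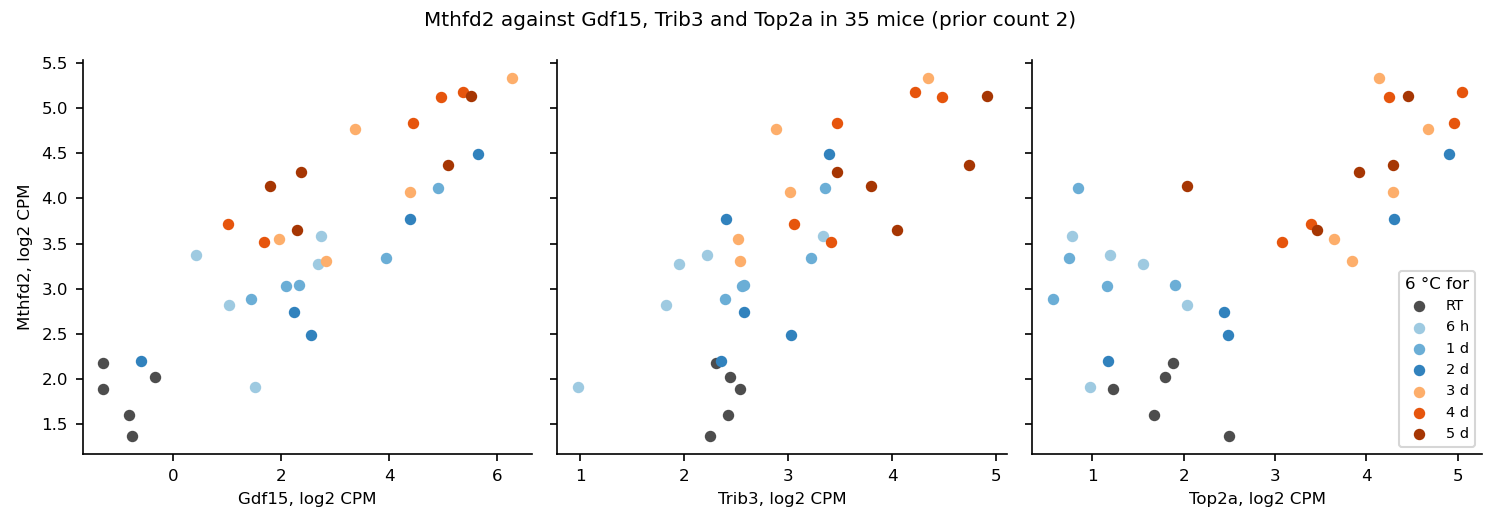
Log2 CPM of Mthfd2 (y axis) against log2 CPM of Gdf15, Trib3 and Top2a (x axes) in the 35 mice, coloured by duration at 6 °C (RT, room temperature; CPM with a prior count of 2). Pearson r is 0.86, 0.77 and 0.70 over all mice and 0.80, 0.72 and 0.59 within durations.

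Proliferation genes and markers of other cell types also differed from controls. Top2a, a mitotic topoisomerase, correlated with Mthfd2 at r = 0.70 (0.59 within durations). Of the proliferation list Top2a and Pcna were tested after every duration, and Top2a was higher after 2, 3, 4 and 5 days (1.92, 2.42, 2.61 and 2.07 on the log2 scale). Mki67 and Cdk1 were tested only at late times, through the cold mice in which they are high. The summed CPM of the 9 genes ran from 12.5 to 17.9 in controls and from 38.0 to 60.5 after 3 days. The summed CPM of 8 macrophage markers was 59.8 to 132 in controls, 92.3 to 251 after 3 days and 58.9 to 207 after 4 days, and 3 of 7 and 2 of 7 of them were higher then and 1 of 7 lower, with 18.3% and 19.4% of all genes higher. Cd14 was lower after every duration. After 6 hours and 1 day 0 of 2 proliferation genes and 0 of 6 macrophage markers were higher. The shares of all genes higher then were 21.5% and 18.9%. Lower were 2 and 1 of the 6 macrophage markers, with 21.0% and 17.8% of all genes. Of 6 stromal markers 0 were higher after any duration, and 0, 4, 1, 0, 1 and 1 were lower after 6 hours and on days 1 to 5. Of 6 endothelial markers 3, 4, 4, 3, 3 and 0 were higher and 1, 0, 1, 0, 1 and 1 lower over the same times. Of all genes 21.5%, 18.9%, 16.4%, 18.3%, 19.4% and 20.2% were higher at these times. The shares of all genes lower were 21.0%, 17.8%, 14.7%, 15.5%, 18.6% and 18.6%. The part of these cell types in the members' values was not tested.

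Between members, Mthfd2 and Psat1 correlated at r = 0.64 over 35 mice (0.56 within durations), Mthfd2 and Shmt2 at 0.54 (0.40), and Mthfd2 and Mthfd1 at -0.53 (-0.59). Psph ran with a different group: r with Mthfd2 was 0.39 overall and -0.37 within durations. The genes most like Psph were Ldha, the lactate dehydrogenase A gene (r = 0.88, 0.75 within durations), Lipa (0.87) and Acsf3 (0.87), and Ldha averaged 247 CPM after 6 hours and 611 after 5 days. Psat1 was most like Col5a1, a fibrillar collagen gene (r = 0.79, 0.70 within durations), and Shmt1 was most like the ribosomal protein gene Rpl22 (0.86, 0.65 within durations). Shmt2 was most like Irf7 and B2m (both 0.70), Mthfd1 like Rps4x (0.70), Aldh1l1 like Prodh (0.70), and Phgdh like Ccdc80 (0.72).

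Promoter windows of RefSeq (GRCm38.p6, 250 bases before to 50 after the start) were found for 9 of the 10 genes, 10 windows in all. They were searched on both strands for TGATGNAA, the composite element bound by ATF4 with C/EBP factors, for TGACGTCA, the full cyclic AMP response element, and for CACGTG, the E-box. None of the 10 windows holds any of these letter strings. Of 32851 promoter windows 3.97%, 1.79% and 7.15% hold them, so 10 windows are too few to differ visibly from those shares. Only exact strings were searched, and the windows of Psat1, Mthfd2 and Aldh1l1 lie well inside the gene bounds given above.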

How the data were processed

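The 35 libraries are of the QuantSeq 3′ FWD type, in which a read marks the 3′ end of a transcript. Per the submitters' processing notes, reads were aligned with STAR 2.6.1d to GRCm38 and the authors made the deposited values with HTSeq 0.11.2 as raw counts per gene, without normalization. Symbols were matched for 55154 of 55421 rows. Gene positions are from GENCODE M21 (GRCm38).

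Each comparison was fitted on its 10 mice with edgeR 4.0.16 in R 4.3.3 (TMM scaling, filterByExpr and a quasi-likelihood test). Calls are at an adjusted p below 0.05, by Benjamini-Hochberg over all genes tested, and the fit was tested on simulated data. Fold changes are estimate ± SE. Members below the filter had exact permutation tests of log2 CPM (prior count 2). DESeq2 1.42.0 and other scalings and filters were alternatives. The members and lists were chosen with earlier results of these data known. From each list up to 3 called genes with the largest changes after 6 hours and 5 days were named. Some results under this rule are not reported here. Replicates are separate mice; same-group libraries differed by more than counting noise (lowest chi-square per degree of freedom 5.0 over 70 pairs).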

Additional observations from a re-analysis of the deposited data

Results flagged for a closer look

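In 4 of 70 groups of 5 mice 1 mouse stood apart from the rest, by the ratio of its gap to the group's range on the log2 CPM scale (Dixon's limit 0.71), which chance gives in about 1 in 20 groups. Psat1 read 1.86 CPM in mouse 1 at 1 day, below the other 4 (ratio 0.755). Shmt1 read 18.1 CPM in mouse 5 at 1 day, above the others (0.831), and it was the 1 mouse of that group above the lowest control, 17.7 CPM. Mthfd1l read 0.217 CPM in mouse 2 at 5 days (0.821) and Aldh1l2 read 0.385 CPM in mouse 4 at 3 days (0.818), which are 1 and 2 counts.

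The change against room temperature differed between 6 hours and 5 days of cold for 4 members, as tested directly between these 2 groups with edgeR. The 5-day level differed from the 6-hour level by 1.95 for Psph, -1.14 for Shmt1, 0.74 for Shmt2 and 1.37 for Mthfd2 on the log2 scale.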

How the results depend on the processing

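No member's call changed with DESeq2, with DESeq2 size factors in edgeR or, among members tested in the 2-group fits, with all 7 groups in one fit. Library size scaling, under which the median log2 fold change of all genes lay between -0.25 and -0.146 against controls and calls split into 931 to 1440 higher and 2430 to 3399 lower, gave 2 members after 6 hours and 5 after 5 days; Psat1 after 6 hours became -0.16, Aldh1l1 after 1 day -0.08 and Mthfd1l after 1 day -0.13. Without the filter 2 members passed after 6 hours, 4 after 2 days, 5 after 5 days and 1 (Mthfd2) from 2 to 3 days. Leaving out 1 mouse gave 1 to 3 members after 6 hours, 2 to 4 after 1 day (4 without mouse 2 of that day), 2 to 4 after 2 days, 2 to 3 after 3 days, 3 to 5 after 4 days and 3 to 5 after 5 days (5 without control 3 or mouse 3 of that day); Phgdh, which passes the filter when a group has 4 mice, then through the controls in which it is high, was called in 6 of the 10 fits after 6 hours, and 4 members passed after 2 days without control 1 or mouse 1 of that day. Values that changed sign when 1 mouse was left out were all uncalled. Psat1 ran from -0.10 to 0.19 after 6 hours and from -0.28 to 0.12 after 2 days. Aldh1l1 ran from -0.19 to 0.33 after 1 day and from -0.13 to 0.32 between 6 hours and 5 days. In the permutation test Mthfd1l ran from -0.23 to 0.15 after 1 day and from -0.28 to 0.16 after 5 days. There Phgdh ran from -0.19 to 0.37 between 6 hours and 5 days. Aldh1l2 after 1 day, at -0.33 with all mice, was not near 0 and ran from -0.77 to 0.02. The cause of these moves was not tested.

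After group means were subtracted, same-numbered control and cold mice correlated between -0.182 and 0.155, with 2 pairs above 0.1, both at 6 hours. Cold groups were not compared with each other in this way. Whether same-numbered mice share a litter or processing day is not given in the sources used here. With the replicate block the counts of members called stayed within 1.5 times, Psat1 after 3 and 4 days was no longer called (0.81 and 0.74), and Psph after 3 days was (0.75, adjusted p = 0.043). Named list genes, recomputed after seeing the data, kept their direction in all alternatives; of 36 calls, 3 were lost with library size scaling, 2 without the filter and 1 with the replicate block (Adsl after 6 hours, 0.51); over the fits that left out 1 library 20 were lost and 340 were not. At these depths genes of a few counts, Phgdh, Mthfd1l and Aldh1l2, allow only large differences to be seen.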
